A study of Homo sapiens with 6 samples.

Results

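The 3 libraries described here were made from PC3 cells carrying a control short hairpin RNA (shRNA) and were chosen by their sample titles from the 6 libraries of a study whose other 3 libraries carried an shRNA against TTC3. The level of each RNA in these control cells is reported, and the knockdown contrast is not. PC3 is an established human prostate cancer line that was grown in F-12K medium with fetal bovine serum and antibiotics, and its genotype is labelled WT. The labels name no hormone or drug and do not give the target of the control shRNA, so cells without any shRNA cannot be compared with these. Total RNA was depleted of ribosomal RNA and made into directional libraries. Nothing in the labels says whether the 3 libraries stem from separate cultures, so each SD (n = 3 throughout) covers the difference between these libraries alone, and it may be technical.

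The luminal cells of the prostate are epithelial cells whose secretory genes, among them the kallikreins KLK2 and KLK3 (prostate-specific antigen), respond to androgen with the help of the pioneer factor FOXA1 and the homeobox factor HOXB13. Basal prostate cells instead carry TP63 and the keratins KRT5 and KRT14, and neuroendocrine cells carry chromogranin and synaptophysin. PC3 was established from a bone metastasis, grows without androgen, and is known in the field as a line that has lost α-catenin (CTNNA1). These statements are background, and the values below show what these genes looked like in the deposited counts.

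The deposited tables held an estimated count for 62700 genes and 117688 transcripts. The 3 libraries summed to 152542388, 154832203 and 143246356 counts. Levels are given as CPM, the counts in each 1000000 of the library after scaling of the library sizes, which gives the share of the counts a gene took, and levels of genes of different length are compared as CPM per kb of transcript. A gene was called expressed when it had at least 1 CPM in each of the 3 libraries. Expression was called for 14693 genes, 23.4% of the table, and for 12352 of 19831 protein-coding genes (62.3%). A further 24696 genes, 2620 of them protein-coding, had 0 counts in all 3 libraries, which at this depth allows up to 0.00666 CPM, a limit that covers counting error only. The median protein-coding gene stood at 2.98 CPM per kb, and the median expressed one at 10.05 CPM per kb (32.1 CPM). The median coefficient of variation (CV, the SD over the mean) across libraries was 7.67% for genes of 1 to 10 CPM, 2.84% for genes of 10 to 100 CPM and 1.67% for genes of 100 CPM or more. Counts of any pair of libraries differed by more than sampling noise, with a median chi-square per gene 3.96 to 5.02 times that of counting error, so no pair looked like 1 library deposited again, which does not show that they stem from separate cultures. TTC3, the gene targeted in the other libraries of the study, was at 726, 715 and 712 CPM here.

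Nuclear protein-coding genes took 83.9%, 83.5% and 83.4% of the counts in the 3 libraries, a mean of 83.6% ± 0.298 (SD). Small structured RNAs were next with 7.59% ± 0.396, mostly through 7SL, the RNA of the signal recognition particle that docks ribosomes to the endoplasmic reticulum. The 7SL genes and their copies held 5.03%, 5.68% and 5.58%, the lowest share in library 1. The 7SK genes and copies, whose RNA holds the elongation kinase P-TEFb in reserve, took 1.3004% ± 0.0209. Mitochondrially encoded RNAs took 5.45% ± 0.138, the annotated long noncoding RNAs 1.85% ± 0.0336 and pseudogenes 0.911% ± 0.00523. The 81 cytosolic ribosomal protein genes, counted within the protein-coding class, held 2.19% ± 0.00731. The 2 mitochondrial ribosomal RNAs together reached only 0.000483% ± 0.0000303, after a library preparation that removes ribosomal RNA. Genes absent from the annotation used here made up 0.547% of the counts. The 10 highest genes held 10.95% ± 0.243 of the counts, the 100 highest 24.02% and the 1000 highest 50.7%. Because counts are shares of a fixed total, the level of a gene can be lower where other RNAs take more of the counts. In a bulk sample a lower level can also mean fewer cells with the RNA or less RNA per cell. These cannot be told apart.

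**Figure D1:**
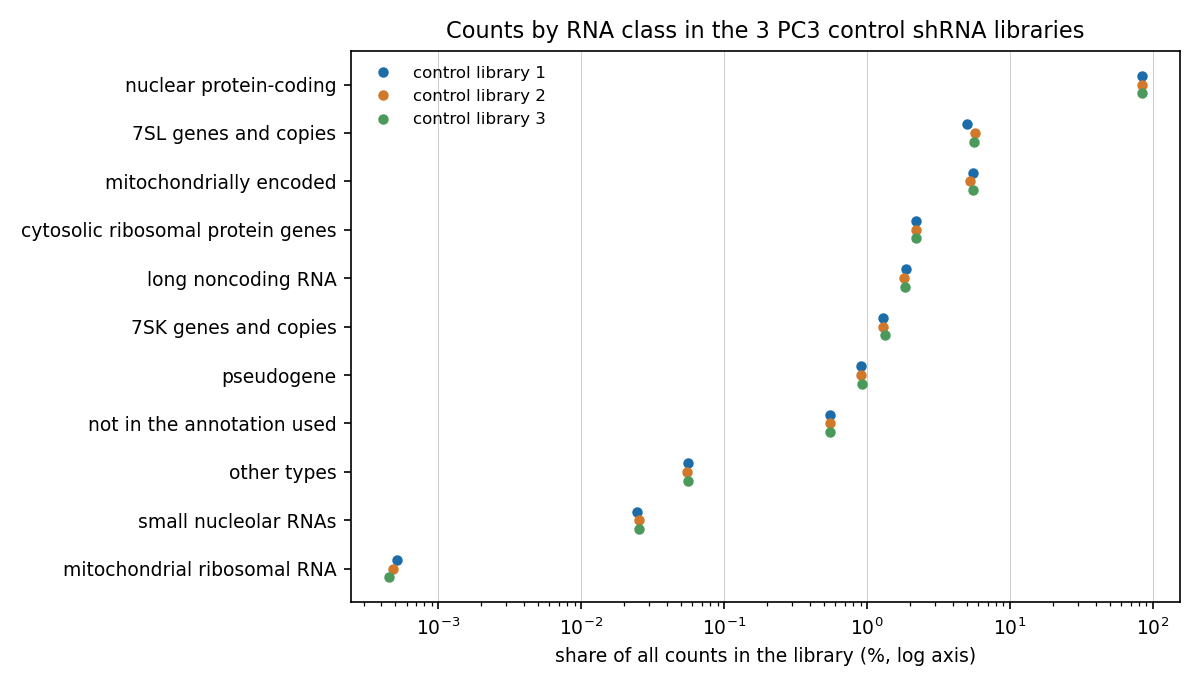
Share of all counts in each library by RNA class, on a log axis, 1 point per control library. Nuclear protein-coding genes lie near 83.6% and mitochondrial ribosomal RNA lies lowest at 0.000483%, with the 3 libraries close together in each class.

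The genes with the most counts were the 7SL genes RN7SL1 (ENSG00000276168.1, hg38 chromosome 14, 49586580 to 49586878, plus strand) and RN7SL2 (ENSG00000274012.1, chromosome 14, 49862550 to 49862849, minus strand). RN7SL1 was at 24761, 28192 and 28846 CPM, a mean of 27266 ± 2195 CPM. RN7SL2 was at 19363, 21986 and 20929.8 CPM, a mean of 20759 ± 1319.8 CPM. Library 1 was the lowest for both genes, and, for these genes of almost the same length, the lowest RN7SL1 library stood above the highest RN7SL2 library. A further gene, RN7SL3, was at 965 ± 51.7 CPM. The transcripts of RN7SL1 and RN7SL2 matched at 295 of 300 aligned positions (98.3%), with 4 mismatches and 1 gap, so how reads were divided between them is uncertain.

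By number of counts, after 7SL came mitochondrial messenger RNAs and nuclear noncoding RNAs. MT-CO1, a subunit of cytochrome oxidase, was at 13545, 13053 and 13594 CPM. RN7SK, the 7SK gene, was at 12651, 12784 and 11401 CPM, lowest in library 3, where an annotated 7SK copy at the same position was highest (given among the other observations). RPPH1, the RNA of the tRNA-trimming enzyme RNase P, was at 6593 ± 359 CPM. The subunits of respiratory complex I MT-ND4, MT-ND2, MT-ND5 and MT-ND1 stood at 8706, 5839.7, 4851 and 3565 CPM, and MT-ATP6 of the ATP synthase at 5236 ± 98.3 CPM. MALAT1, a nuclear long noncoding RNA, was at 4607 ± 149 CPM. The nuclear protein-coding genes with the most counts were FTH1 (ferritin heavy chain) at 3564 ± 74.99 CPM, ACTB (beta-actin) at 3219 ± 38.7 CPM and PKM (pyruvate kinase) at 3144 ± 62.5 CPM. The libraries of MT-ND1 and FTH1 overlapped, so these 2 genes are not ordered by counts.

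**Figure D2:**
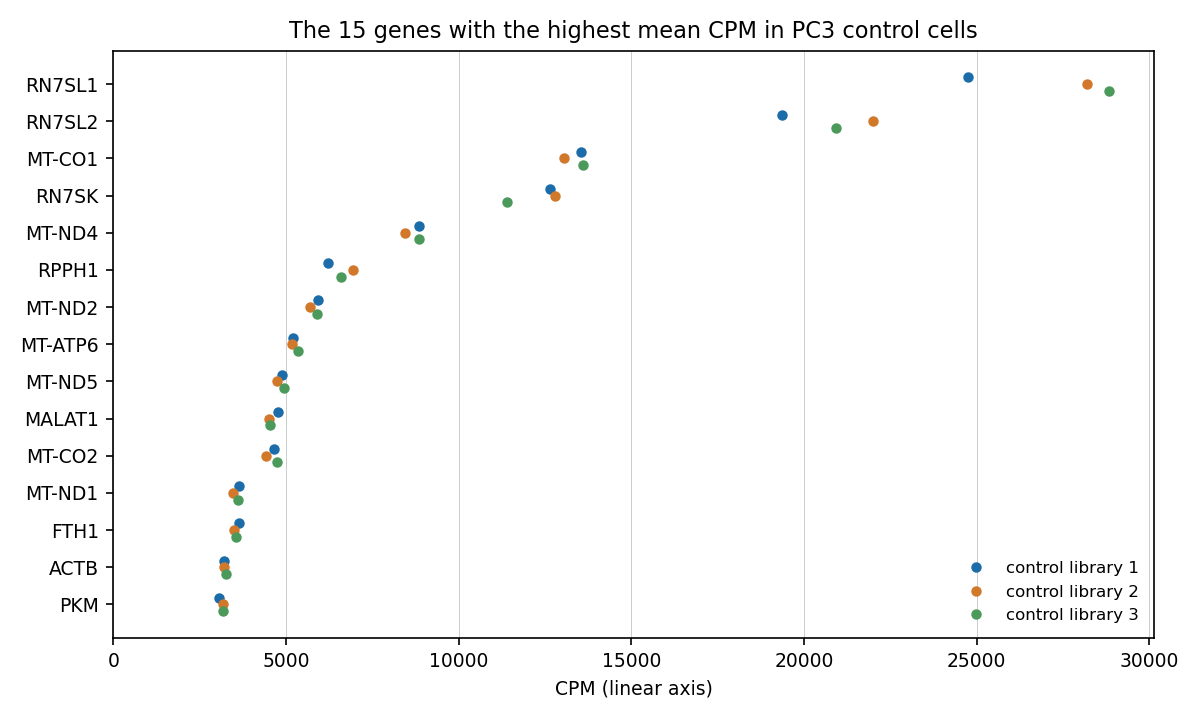
CPM in each of the 3 control libraries for the 15 genes with the highest mean, on a linear axis from 0. RN7SL1 and RN7SL2 lead with means of 27266 and 20759 CPM, and the spread between libraries is widest for RN7SL1 (SD 2195 CPM).

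Per kb of transcript, 11 of the 13 mitochondrial protein genes were among the 15 highest protein-coding genes. MT-ATP8 led with 9307 CPM per kb, followed by MT-CO1 with 8688 and MT-ATP6 with 7689. MT-ATP8 and MT-ATP6 share bases, so their separate levels are uncertain. The remaining mitochondrial genes, MT-ND3 and MT-ND6, were lower at 480.4 and 527 CPM per kb. The 4 nuclear genes in this top group were FTH1 (3506 CPM per kb), the ribosomal protein gene RPS24 (2616), the glycolytic enzyme GAPDH (1495) and ACTB (1434). All 30 genes of a list of cytoskeleton, translation and glycolysis genes were expressed (against 62.3% of all protein-coding genes), with a median of 548.6 CPM per kb. They ranged from TBP, the TATA-binding protein, at 6.302 CPM per kb to FTH1. MSMP, which encodes the PC3-secreted microprotein and is named here after its value was seen, ranked 17 among protein-coding genes with 1216 CPM per kb (804, 827 and 814 CPM in the 3 libraries).

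Of the 30 members of the prostate luminal and androgen-regulated list, 15 were expressed (50%, against 62.3% of all protein-coding genes), 9 had counts below the 1 CPM call and 6 had 0 counts. The median member stood at 0.781 CPM per kb. HOXB13, the homeobox factor of the caudal HOXB cluster, was at 368, 389 and 383 CPM (109.6 CPM per kb). FOXA1, which opens chromatin for nuclear receptors, was at 200.5, 202 and 205 CPM (70.7 CPM per kb). NDRG1, an androgen- and hypoxia-responsive gene, was the highest member with 389.8 ± 10.98 CPM (129 CPM per kb). SPDEF, an epithelial ETS factor, was at 57.8 ± 1.65 CPM, DPP4, a surface peptidase, at 66.3 ± 1.43 CPM, and TMPRSS2, a serine protease, at 39.4 ± 0.343 CPM. In each of these genes the 3 libraries lay close together, with CVs from 0.8702% (TMPRSS2) to 2.94% (HOXB13).

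KLK2, KLK3, the seminal fluid gene MSMB, the zinc-binding glycoprotein gene AZGP1, the neuropeptide gene NPY and the long noncoding RNA PCA3 had 0 counts in all 3 libraries, so none was detectable at this depth. FOLH1 (prostate-specific membrane antigen) was at 0.503 ± 0.136 CPM and the acid phosphatase gene ACP3 at 0.343 ± 0.103 CPM, both below the call. Among the 7 defining luminal markers, 2 were expressed.

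The promoters of KLK3 and KLK2 are shown because both genes had 0 counts. Over the 250 bases before the start, the 2 promoters matched at 207 of 259 aligned positions (79.9%), and both hold an androgen response element of the form GAACANNNNGTNCT, searched on both strands (reverse complement AGNACNNNNTGTTC). The element is in capitals, and the sequences are from RefSeq (GRCh38.p14). This form occurred in 64 of the 27305 promoters of the table (0.234%). A match is a description of the sequence and says nothing of binding. The KLK3 promoter lay at chr19:50854665-50854914 and the KLK2 promoter at chr19:50873189-50873438, both on the plus strand.
KLK3 promoter: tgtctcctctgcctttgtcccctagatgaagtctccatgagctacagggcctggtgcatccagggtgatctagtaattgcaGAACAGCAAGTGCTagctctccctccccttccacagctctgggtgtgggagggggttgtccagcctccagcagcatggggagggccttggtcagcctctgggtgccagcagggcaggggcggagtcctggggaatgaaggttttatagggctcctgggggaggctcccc
KLK2 promoter: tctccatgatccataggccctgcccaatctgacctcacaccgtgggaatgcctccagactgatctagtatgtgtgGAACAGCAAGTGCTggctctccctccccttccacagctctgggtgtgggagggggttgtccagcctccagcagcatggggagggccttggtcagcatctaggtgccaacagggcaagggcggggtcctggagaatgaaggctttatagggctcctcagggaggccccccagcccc

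All 7 members of a keratin list were expressed (against 62.3% of all protein-coding genes), with a median of 110.0 CPM per kb. The list holds keratins of simple epithelium together with KRT80 and the hair keratin KRT81. KRT81 led with 1018, 1071 and 1065 CPM (545 CPM per kb), but it shares sequence with KRT83, KRT85 and KRT86, among which reads may have been split. Of the simple epithelial keratins, KRT19 was at 344 ± 13.1 CPM (247 CPM per kb), KRT7 at 199 ± 4.02 CPM (113) and KRT18 at 171 ± 6.696 CPM (110.0). KRT8, the partner of KRT18 in luminal filaments, was at 172 ± 4.49 CPM (60.2 CPM per kb). The length used for KRT8 was that of its longest transcript (2862 bases), and that for KRT18 the mean of its counted transcripts (1553 bases). Their levels per kb therefore rest on unlike lengths. Of the 19 basal and squamous genes, 8 were expressed (42.1%, against 62.3% of all protein-coding genes), 8 lay below the call and 3 (KRT5, the desmosomal cadherin gene DSG3 and the envelope gene IVL) had 0 counts. TP63, the basal master regulator, was at 0.711, 0.7698 and 0.638 CPM. The expressed members included the laminin-binding integrins ITGA6 at 361 ± 1.89 CPM and ITGB4 at 203 ± 7.91 CPM, the laminin chain LAMB3 at 108 ± 1.84 CPM and SFN (14-3-3 sigma) at 61.2 ± 2.997 CPM. KRT15 was the only one of the 4 defining basal markers to be expressed, at 15.9 ± 1.22 CPM.

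The neuroendocrine list had 8 of 26 members expressed (30.8%, against 62.3% of all protein-coding genes), 8 below the call and 10 with 0 counts, with a median of 0.00938 CPM per kb. Those with 0 counts included the granule gene CHGA, its relative CHGB, the lineage factors INSM1 and NKX2-1, and SCG3, UCHL1, CALCA, SST and GRP. SYP (synaptophysin) was at 0.887, 1.03 and 1.04 CPM, just under and just over the call, so it missed the call in library 1 alone. The 8 expressed members were the beta-tubulin gene TUBB3 at 86.8 ± 2.59 CPM, the enolase gene ENO2 at 115 ± 3.63 CPM, the imprinted gene PEG10 at 222 ± 1.59 CPM, REST at 139.7 ± 3.12 CPM, FOXA2 at 19.9 ± 0.286 CPM, ONECUT2 at 18.99 ± 1.58 CPM, VGF at 6.63 ± 0.174 CPM and DLL3 at 3.37 ± 0.269 CPM. REST represses neuronal genes and belongs to the list as their opponent. The summed level of the 5 defining neuroendocrine markers was 0.887 to 1.11 CPM.

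Of 30 epithelial adhesion and identity genes, 22 were expressed (73.3%, against 62.3% of all protein-coding genes), 7 lay below the call and 1, CTNNA1, had 0 counts. CDH1, which encodes E-cadherin, was low at 2.03, 2.13 and 2.02 CPM (0.421 CPM per kb), and its 929 counts all lay in the transcript CDH1-201. EPCAM, an epithelial adhesion molecule, was at 4.62 ± 0.0881 CPM. The catenins that bind the tail of cadherins were far higher: CTNND1 (p120) stood at 301 ± 4.08 CPM (104 CPM per kb) and CTNNB1 (beta-catenin) at 344 ± 2.17 CPM (95.99 CPM per kb). The tight junction gene CLDN4 was at 198 ± 5.93 CPM (101 CPM per kb) and TJP1 at 289 ± 5.36 CPM. The regulators of epithelial identity ESRP1, GRHL2, OVOL1 and OVOL2 lay below the call at 0.545, 0.177, 0.0217 and 0.131 CPM, whereas ELF3 (42.2 ± 0.589 CPM), EHF (31.8 ± 1.59 CPM) and the splicing factor ESRP2 (23.95 ± 0.115 CPM) were expressed.

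The mesenchymal list had 18 of 30 members expressed (60%), close to the 62.3% of all protein-coding genes, so the count says nothing particular about it. Its leading member VIM, the intermediate filament vimentin, was at 1284, 1297 and 1299.9 CPM (692 CPM per kb) and ranked 34 among protein-coding genes. FN1 (fibronectin) was at 799 ± 9.48 CPM (98.5 CPM per kb), the receptor AXL at 340.4 ± 11.9 CPM (81.9), the cadherin CDH11 at 446 ± 3.18 CPM (65.7) and CDH2 (N-cadherin) at 132 ± 4.07 CPM (30.5). Per kb, N-cadherin thus stood at 30.5 and E-cadherin at 0.421, without overlap between libraries. Of the transcription factors, ZEB1 was at 61.7 ± 0.441 CPM, SNAI2 at 19.1 ± 0.369 CPM and TWIST1 at 14.8 ± 0.472 CPM, and SNAI1 and ZEB2 were low at 2.03 and 2.17 CPM. MMP2, a gelatinase, had 0 counts. Matrix and fibroblast genes of the same list were mixed. COL6A3, SPARC, COL1A1, PDGFRA and COL3A1 were expressed at 91.9, 22.2, 19.9, 16.8 and 7.94 CPM, and LUM, PDGFRB, COL1A2, FAP, DCN and THY1 lay below the call at 0.433, 0.233, 0.09101, 0.0693, 0.0303 and 0.0129 CPM.

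Markers of other cell types were used as a check of purity. Of 23 such genes, 4 were expressed (17.4%, against 62.3% of all protein-coding genes), 13 lay below the call and 6 (CD3E, CDH5, HBB, HBG1 and IBSP among them) had 0 counts. The expressed ones were the lysosomal gene CD68 at 12.3, 14.7 and 17.2 CPM, highest in library 3, PECAM1 at 5.22 ± 0.5004 CPM, the VEGF receptor KDR at 43.003 ± 0.404 CPM and MBP at 45.002 ± 1.84 CPM. The 5 immune markers summed to 12.9 to 17.8 CPM, nearly all from CD68, while the leukocyte gene PTPRC stood at 0.154 ± 0.0806 CPM. The 3 endothelial markers summed to 4.91 to 5.89 CPM, nearly all from PECAM1, with CDH5 at 0. Erythroid and muscle markers summed to at most 0.0421 and 0.313 CPM. The 4 fibroblast markers summed to 27.8 to 28.8 CPM, from COL1A1 (19.9 ± 0.673 CPM) and COL3A1 (7.94 ± 0.372 CPM). The part of other cells in these levels was not tested.

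**Figure D3:**
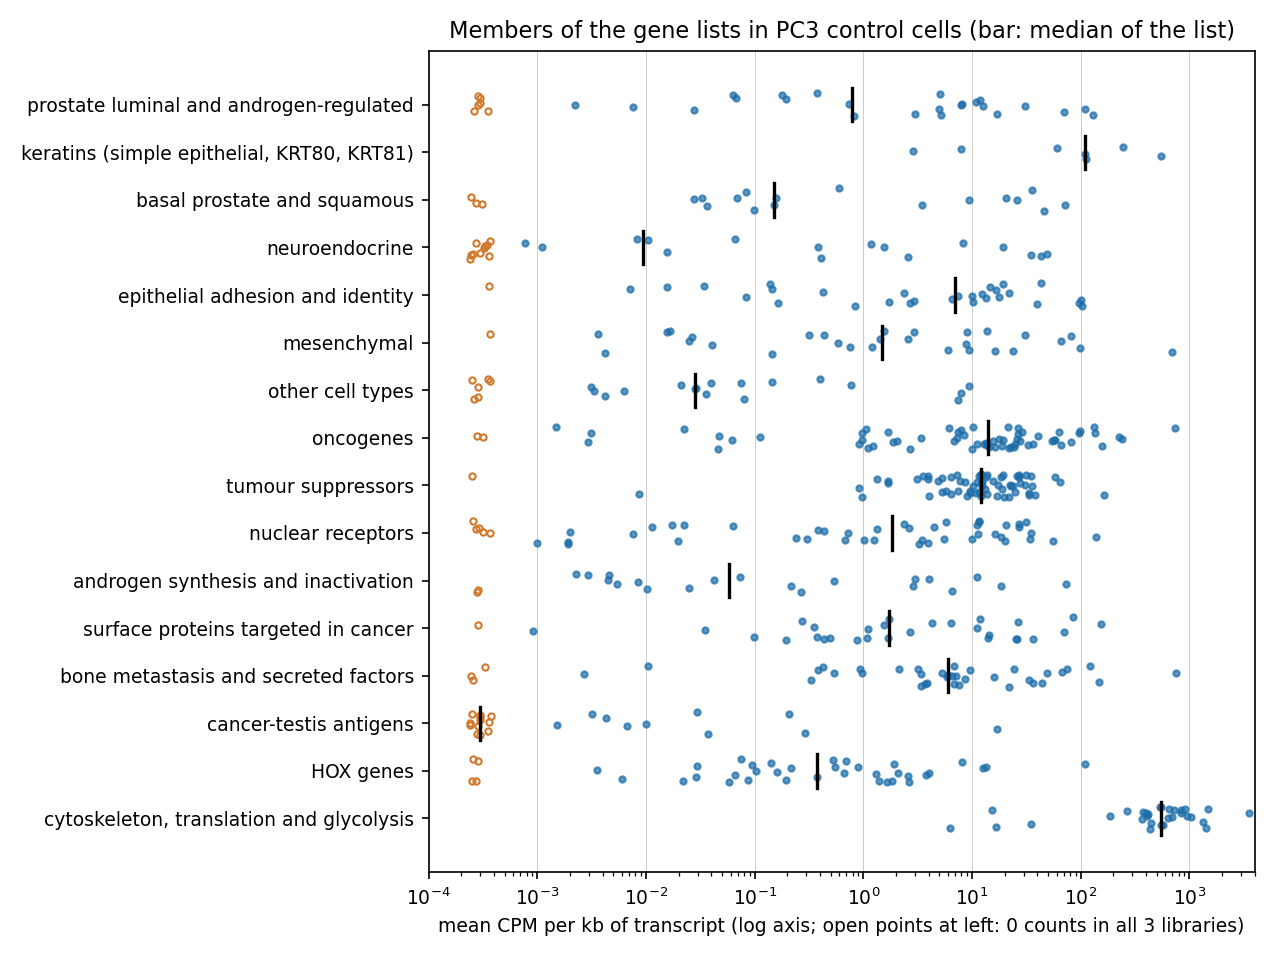
Mean CPM per kb of every member of 16 gene lists, on a log axis, 1 point per gene. Open points at the left edge are members with 0 counts in all 3 libraries, and the bar is the median of the list: the medians of the tumour suppressor and oncogene lists lie at 12.2 and 13.98 CPM per kb, and that of the neuroendocrine list at 0.00938.

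Oncogenes were mostly expressed: 55 of 66 members passed the call (83.3%, against 62.3%), 9 lay below it and 2 had 0 counts, with a median of 13.98 CPM per kb. The highest member was FOSL1, the FRA1 subunit of AP-1, at 1094, 1102 and 1120.2 CPM (741 CPM per kb). GNAS, a G-protein subunit, was at 970.1 ± 9.37 CPM (241 CPM per kb) and CCND1 (cyclin D1) at 985, 976 and 975 CPM (227 CPM per kb). The related CCND3 was at 46.2 ± 1.17 CPM and CCND2 at 0.302 ± 0.0216 CPM, below the call. BCL2L1, which protects from apoptosis, stood at 409 ± 7.301 CPM (157 CPM per kb), while its relative BCL2 was at 5.596 ± 0.225 CPM (1.06 CPM per kb). MET, the hepatocyte growth factor receptor, was at 780.3 ± 9.701 CPM (136 CPM per kb) and the Hippo effector WWTR1 (TAZ) at 286 ± 5.21 CPM (134 CPM per kb).

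MYC was at 226, 227 and 226 CPM (97.7 CPM per kb), with an SD of 0.663 CPM. MYCN had 0 counts and MYCL was at 3.49 ± 0.383 CPM. Among the receptors of the epidermal growth factor, EGFR was at 211, 204 and 205 CPM (21.2 CPM per kb), ERBB2 at 49.4 ± 1.86 CPM (11.1) and ERBB3 at 6.28 ± 0.322 CPM (1.11), and ERBB4 lay below the call at 0.756 ± 0.0364 CPM. The RAS genes HRAS and NRAS were at 21.8 and 8.51 CPM per kb. The kinase genes AKT1 and AKT2, which act below phosphoinositide 3-kinase, were at 63.7 and 19.3 CPM per kb (187 ± 2.88 CPM and 90.4 ± 0.969 CPM), without overlap between libraries. Of the ETS genes that are rearranged in prostate tumours, ERG had 7 counts in all (0.0157 CPM), while ETV4, ETV5 and ETV1 were expressed at 121, 117 and 44.4 CPM. The receptor gene KIT had 0 counts, RET and FGFR2 were at 0.00652 and 0.0129 CPM, and TERT, the telomerase reverse transcriptase, was at 0.454 ± 0.0324 CPM, below the call.

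Tumour suppressors were nearly all expressed: 63 of 66 (95.5%, against 62.3%) passed the call, 2 (DCC and FHIT) lay below it and CTNNA1 had 0 counts, with a median of 12.2 CPM per kb. DCC was at 0.0851 ± 0.0457 CPM, and FHIT, at 1.04, 0.912 and 1.32 CPM, missed the call in library 2 alone. The highest per kb was GSTP1, a glutathione transferase, with 156 ± 3.09 CPM (163 CPM per kb). SMAD3, which carries TGF-beta signals, was at 379 ± 1.35 CPM (64.1 CPM per kb) and NF2 (merlin) at 353 ± 4.58 CPM (58.6 CPM per kb). CDKN2A, which encodes p16 and p14ARF, was at 44.3, 45.8 and 45.5 CPM (38.1 CPM per kb) as a whole gene. That level does not separate these products, and the shares of its transcripts are given below. BAP1 and TGFBR2 followed at 35.2 and 35.3 CPM per kb. RB1, the retinoblastoma gene, was at 58.2, 59.2 and 55.001 CPM (12.002 CPM per kb), near the median of the list, and 99.5% of its counts lay in the full-length transcript RB1-201.

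CDKN1A, which encodes the cyclin-dependent kinase inhibitor p21, was at 18.2, 18.3 and 19.99 CPM, a mean of 18.8 ± 1.03 CPM. MDM2, a ubiquitin ligase gene, was at 91.1, 92.5 and 89.2 CPM, a mean of 90.9 ± 1.66 CPM.

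CTNNA1 (ENSG00000044115.21, chromosome 5, 138610967 to 138935034, plus strand), which encodes the α-catenin that links cadherins to actin, had 0 counts in all 3 libraries, at most 0.00666 CPM. LRRTM2, which lies within the span of CTNNA1, also had 0 counts. The gene before it, HSPA9, was at 355, 353 and 355 CPM and ETF1 at 134 ± 4.47 CPM. The gene after it, SIL1, was at 3.49, 3.403 and 2.86 CPM, and MATR3, listed under 2 identifiers, was at 273 and 59.0 CPM. The 0 of CTNNA1 thus stood between neighbours that were expressed in every library. Its promoter is printed with those of other genes below.

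**Figure D4:**
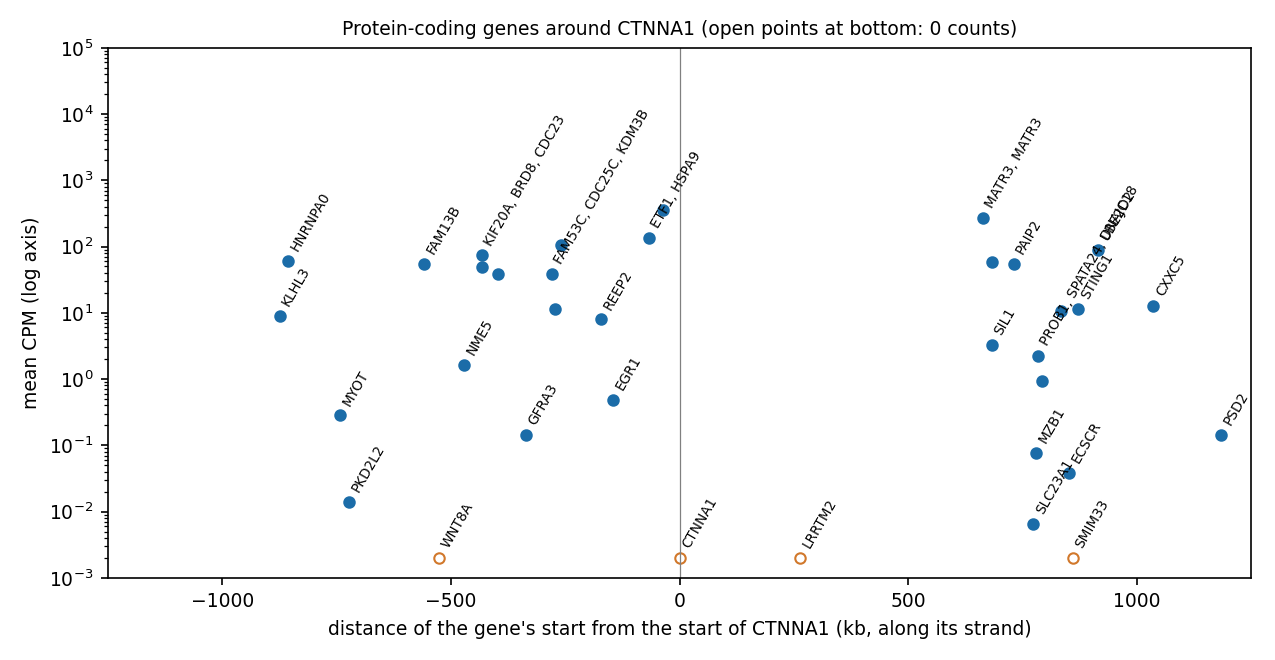
Mean CPM (log axis) of the protein-coding genes around CTNNA1, plotted by the distance of each start from the start of CTNNA1 in kb. Open points at the bottom are genes with 0 counts, among them CTNNA1 itself and LRRTM2, between neighbours such as HSPA9 at 354 CPM.

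Some other genes of the transcript panel were dominated by 1 form, and others were not. Among the latter, the highest annotated forms were BCL2L1-201 with 34.9% ± 2.25 and VEGFA-205 with 36.8% ± 3.18 of the counts of their genes. TTC3-207 held 55.9% ± 5.85 of the TTC3 counts and MYC-202 held 56.2% ± 4.50 of the MYC counts. EGFR-201, the full-length receptor of 1210 residues, held 98.9% ± 0.349 of the EGFR counts. CD44 is an adhesion receptor that is spliced with or without variable exons, and CD44-201, of 9 exons and 361 residues, held 81.4% ± 1.21 of its counts. CD44-210 held 13.8% ± 1.15 and the 17-exon CD44-206 held 2.33% ± 0.178. PKM-202 took 89.9% ± 1.03 of the PKM counts and CDKN2A-214 took 79.8% ± 2.02 of those of CDKN2A. NR3C1-203 took 87.1%, 82.99% and 70.4% of the glucocorticoid receptor, lowest in library 3. Splits that move this way between libraries of 1 group are not read as isoform levels.

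Of 48 nuclear receptors, 33 were expressed (68.8%, near the 62.3% of all protein-coding genes), 10 lay below the call and 5 (NR0B1, NR0B2, NR1I3, NR2E1 and RXRG) had 0 counts. PPARG, the lipid-sensing receptor, was the highest with 282, 277 and 279 CPM (138 CPM per kb). NR1H2 (LXR beta) was at 56.1, PPARD at 35.2, NR2F1 at 33.98, NR2C2 at 31.2 and NR1D1, a clock repressor, at 27.3 CPM per kb. The glucocorticoid receptor NR3C1, which binds stress hormones, was at 74.8, 69.6 and 71.9 CPM (11.3 CPM per kb). The estrogen receptor genes ESR1 and ESR2 were at 0.00647 CPM (3 counts in all) and 3.95 ± 0.294 CPM, and PGR was at 0.0265 CPM. FKBP5, a target of NR3C1, was at 31.6 ± 1.59 CPM.

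Of 22 genes of androgen synthesis and inactivation, 8 were expressed (36.4%, against 62.3% of all protein-coding genes), 12 lay below the call and 2 (HSD3B2 and SULT2A1) had 0 counts. The early steps were at or near 0, with CYP17A1 at 0.00862 CPM (4 counts in all), CYP11A1 at 0.0109 and HSD3B1 at 0.00647 CPM (3 counts). HSD17B10, a mitochondrial dehydrogenase with other substrates as well, was the highest at 69.4 ± 1.43 CPM (73.7 CPM per kb). HSD17B2, which oxidises testosterone, was at 26.7 ± 0.384 CPM (18.4 CPM per kb) and HSD17B4 at 61.3 ± 1.25 CPM. AKR1C3, which makes testosterone from its precursor, was at 6.75 ± 0.312 CPM. Of the 5-alpha-reductases, SRD5A1 and SRD5A3 were at 20.6 and 27.7 CPM and SRD5A2 at 0.0135 CPM.

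Of 30 surface proteins targeted in cancer, 20 were expressed (66.7%, near the 62.3% of all protein-coding genes, so the count says nothing particular about the list), 9 lay below the call and KLK2, which is targeted although secreted, had 0 counts. EPHA2, an ephrin receptor, was the highest at 601, 624 and 615 CPM (155 CPM per kb), followed by the adhesion molecules ALCAM (396 ± 4.45 CPM, 84.7 CPM per kb) and CD44 (284 ± 2.81 CPM, 69.8 CPM per kb). LY6E, CD276 (B7-H3) and CD47 were at 36.4, 26.6 and 25.8 CPM per kb. STEAP1, a surface protein of prostate cells, was at 15.5 ± 0.648 CPM. FOLH1, NECTIN4, PSCA and SSTR2 were below the call at 0.503, 0.123, 0.351 and 0.00701 CPM.

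Among 39 factors tied to bone metastasis or secreted by tumour cells, 32 were expressed (82.1%, against 62.3% of all protein-coding genes), 4 lay below the call and 3 had 0 counts, with a median of 5.995 CPM per kb. DKK1, which blocks Wnt signals to osteoblasts, was at 1369, 1364 and 1357 CPM (762 CPM per kb) and ranked 27 among protein-coding genes. The 3 libraries differed little, with a CV of 0.436%. GDF15, a stress-induced cytokine, was at 176 ± 4.98 CPM (147 CPM per kb), the neutrophil chemokines CXCL8 and CXCL1 at 123 and 74.7 CPM per kb, and PTHLH, whose product drives bone resorption, at 108 ± 1.06 CPM (67.8 CPM per kb). LIF was at 196 ± 5.63 CPM (49.4 CPM per kb). The osteoclast ligand gene TNFSF11 (RANKL) and the bone matrix genes SPP1 and IBSP had 0 counts, and its decoy receptor gene TNFRSF11B was at 1.301 ± 0.0712 CPM. IL6 was at 7.8997 ± 0.347 CPM and CXCR4 at 1.64 ± 0.0806 CPM, while CXCL12, the ligand of CXCR4, had counts in library 3 alone.

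Cancer-testis antigens, which normal tissues restrict to germ cells, had 1 expressed member of 22 (4.55%, against 62.3% of all protein-coding genes), 9 lay below the call and 12 had 0 counts. PRAME was the expressed one with 36.8, 37.3 and 38.9 CPM (17.04 CPM per kb). MAGEA6 and MAGEA3, near-identical copies between which reads may have been split, were the next with 0.292 and 0.207 CPM per kb. The 12 without counts were MAGEA4, MAGEA10, MAGEA11, MAGEB2, MAGEC2, CTAG2, GAGE1, XAGE1B, PAGE4, SSX2, CT45A1 and SYCP1. Several of these belong to families of near-identical copies, and how reads were assigned among copies is not stated.

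The 39 HOX genes, whose order in 4 clusters follows the body axis, had 17 expressed members (43.6%, against 62.3% of all protein-coding genes), 18 below the call and 4 with 0 counts (HOXB1, HOXD9, HOXD10 and HOXD11). With a call at 5 CPM in place of 1 CPM, 8 were expressed. HOXB13 was the highest at 109.6 CPM per kb, and the next were HOXA13 at 66.8, 69.5 and 67.3 CPM (13.5 CPM per kb), HOXA9 at 24.6 ± 1.18 CPM (12.5) and HOXA10 at 16.4 ± 0.542 CPM (8.11). HOXA11 (4.05 CPM per kb) and HOXB6 (3.75 CPM per kb) followed. The HOXA cluster was expressed along its whole length save HOXA7 (0.176 ± 0.06701 CPM). In the HOXB cluster, HOXB13 stood far above its neighbour HOXB9 (0.666 CPM per kb). In the HOXC cluster, HOXC13 and HOXC6 were expressed at 6.23 and 5.08 CPM, and HOXC8, at 1.095, 1.12 and 0.785 CPM, missed the call in library 3 alone. No HOXD gene passed it, with HOXD4, the highest, at 0.945, 1.11 and 0.995 CPM. The paralogs of group 13 ranged from 109.6 CPM per kb (HOXB13) through 13.5 (HOXA13) and 2.57 (HOXC13) to 0.0745 CPM per kb (HOXD13).

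**Figure D5:**
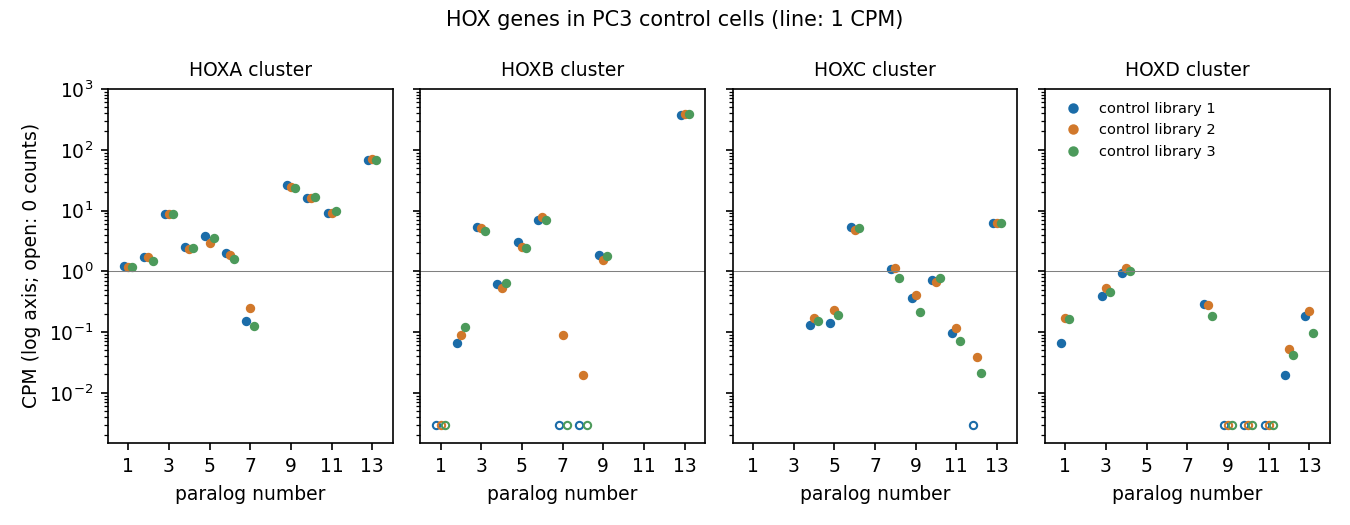
CPM of the HOX genes in the 3 control libraries by cluster and paralog number, on a log axis with a line at 1 CPM and open points for 0 counts. HOXB13 stands highest at 379.9 CPM, HOXA13 next at 67.9 CPM, and no HOXD gene lies above the line in all 3 libraries.

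Annotated long noncoding RNAs passed the call in 1214 of 14711 genes (8.25%). After MALAT1 those with the most counts were LINC00632 (953 ± 17.5 CPM), LOXL1-AS1 (478 ± 4.65 CPM), NORAD (458 ± 9.01 CPM), SNHG16 (449 ± 4.2002 CPM), LINC02582 (439 ± 6.43 CPM) and NEAT1 (429 ± 4.88 CPM). LINC00632 is the host of the circular RNA CDR1as, which a gene-level count cannot tell from the linear RNA. NORAD keeps Pumilio proteins from their targets and NEAT1 builds paraspeckles. Of 28 named long noncoding RNAs in the table, 22 were expressed (78.6%), 5 lay below the call and PCGEM1, known from the prostate, had 0 counts. Among these 28, the highest per kb were MALAT1 (529), DANCR (143), NORAD (85.8), MIR100HG (65.5), PVT1 (42.6) and ZFAS1 (34.3 CPM per kb). Of the genes outside these 28, LOXL1-AS1, LINC02582 and SNHG16 stood at 757, 377 and 156 CPM per kb, all above DANCR. DANCR and ZFAS1 host small nucleolar RNAs. SCHLAP1, tied to aggressive prostate cancer, was at 0.906, 1.25 and 1.03 CPM, HOTAIR at 0.284 ± 0.0659 CPM and H19 at 0.145 ± 0.0704 CPM.

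Of 24 listed small structured RNAs in the table, with 7SL, 7SK and RPPH1 among them, 12 were expressed (against 1.05% of the 7040 annotated genes of that class) and VTRNA1-3, a vault RNA, had 0 counts. RMRP, the RNA of the RNase MRP complex, was at 1339.6 ± 46.7 CPM (5074 CPM per kb) and the Cajal body RNA SCARNA2 at 62.2 ± 2.43 CPM (148 CPM per kb). The spliceosomal RNAs RNU4-2, RNU1-1 and RNU4-1 were at 53.7, 48.7 and 32.6 CPM per kb, and RNU6-1 at 0.143. The shortest of these RNAs are thinly covered by libraries of this kind, and multi-copy genes lose reads to their copies, so these levels are not measures of the RNA in the cell.

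Promoters were compared between expressed and silent genes by the ratio of observed to expected CpG in the 250 bases before the start, where a ratio of at least 0.6 marks a CpG-rich promoter. Of 10055 expressed protein-coding genes with a promoter in the RefSeq table, 81.6% were CpG-rich, and of the 1783 at 100 CPM or more, 86.8%. The share was 35.8% of the 3358 genes that had counts but missed the call and 21.9% of the 1888 genes with 0 counts, beside 47.4% of all 27305 promoters. The letters TATAAA on the plus strand of the gene, within the last 50 bases before the start, occurred in 1.94% of the expressed genes and 10.5% of those with 0 counts. The most highly expressed group stood at 3.20%, and all promoters at 2.92%. The set of all 27305 promoters is not a like background for these groups, because only 15301 of them matched a protein-coding gene.

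The promoters of 4 genes are shown as examples. FOXA1 (chr14:37595250-37595499, minus strand, 26 CpG) and DKK1 (chr10:52314031-52314280, plus strand, 18 CpG) were CpG-rich and highly expressed. MSMP (chr9:35754277-35754526, minus strand, 2 CpG) was CpG-poor and among the highest genes per kb. CTNNA1 (chr5:138753175-138753424, plus strand, 33 CpG) was CpG-rich and had 0 counts, and its RefSeq start lies within the span of the gene given above. The RefSeq starts of FOXA1 and MSMP also lie within the annotated spans of their genes (37589984 to 37596059 and 35752990 to 35756613). Which start these cells use was not tested, so the promoter shown may be another one. Whether CTNNA1 is present in the genome of these cells was not tested, so its 0 counts may not bear on its promoter. The sequences are from RefSeq (GRCh38.p14), with each CG in capitals.
FOXA1 promoter: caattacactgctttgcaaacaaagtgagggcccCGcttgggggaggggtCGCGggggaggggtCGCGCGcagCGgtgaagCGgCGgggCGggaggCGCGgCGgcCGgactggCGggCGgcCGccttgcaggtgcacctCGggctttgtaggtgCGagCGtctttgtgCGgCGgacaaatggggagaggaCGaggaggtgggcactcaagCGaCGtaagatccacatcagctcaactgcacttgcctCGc
DKK1 promoter: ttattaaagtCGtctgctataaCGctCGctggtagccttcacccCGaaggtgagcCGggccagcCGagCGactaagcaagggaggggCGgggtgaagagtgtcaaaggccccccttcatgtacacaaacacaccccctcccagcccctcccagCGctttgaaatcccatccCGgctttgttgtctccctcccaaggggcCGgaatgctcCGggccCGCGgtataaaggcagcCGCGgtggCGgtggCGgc
MSMP promoter: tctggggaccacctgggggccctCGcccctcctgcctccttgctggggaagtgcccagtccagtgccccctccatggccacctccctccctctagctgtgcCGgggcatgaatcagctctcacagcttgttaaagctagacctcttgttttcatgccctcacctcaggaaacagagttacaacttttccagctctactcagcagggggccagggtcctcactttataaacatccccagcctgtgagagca
CTNNA1 promoter: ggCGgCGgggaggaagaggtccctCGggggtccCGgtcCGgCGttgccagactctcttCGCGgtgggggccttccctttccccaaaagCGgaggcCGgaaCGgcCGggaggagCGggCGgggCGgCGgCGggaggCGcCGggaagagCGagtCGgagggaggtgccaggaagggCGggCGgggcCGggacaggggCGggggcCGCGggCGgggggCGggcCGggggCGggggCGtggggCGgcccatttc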

How the data were processed

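RNA sequencing of the 3 control shRNA libraries was analysed from the gene and transcript tables of the series, with groups and replicate numbers taken from the sample titles. Values are expected counts (estimated counts, whole numbers not scaled for library size) that the authors deposited per gene and transcript, and gene and transcript totals were equal. Trim Galore, STAR, StringTie and hg38 were used, per the submitters' processing notes. Tool versions, the gene annotation behind the tables and the strand setting of the counting are not stated, so overlapping, antisense and near-identical genes are uncertain.

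TMM scaling gave factors of 0.996 to 1.0056 (edgeR 4.0.16, R 4.3.3) over the 22708 genes left by filterByExpr, and the scaling was tested on simulated data. CPM is the count in each 1000000 of the scaled library size. Gene types, positions and lengths came from GENCODE 29 (GRCh38, also called hg38), which held 58207 genes and 98286 transcripts by identifier, with 93.2% of the control counts in the matched transcripts. All 62700 gene identifiers were found in the reference name table, where 20357 of them have their identifier as the name. Length was the count-weighted mean of the matched transcripts. Where under 80% of a gene's counts lay in these, the longest transcript was used (8.31% of expressed protein-coding genes), a rule added after seeing the data. Promoters came from the RefSeq table of GRCh38.p14 (27305 of 300 bases, of which 15301 matched a protein-coding gene). The floor for 0 counts was 3 counts over the summed libraries.

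With a single group there was no test and no p-value, and levels are given as mean ± SD. Members and lists were chosen with earlier results of these data known. By rule, the named genes were the 15 highest in CPM, the 15 highest protein-coding genes per kb, the 15 highest long noncoding RNAs, up to 6 highest members per kb of each list, its members with 0 counts, a fixed set including CTNNA1, RB1, MYC, CDH1, VIM, KLK3, EGFR, NR3C1 and TTC3, and genes within 1 Mb of CTNNA1. Some genes of these sets are not reported here. Further list members, MSMP and the copies of RN7SK and KRT81 were named after their values were seen. Alternatives were other scalings (library totals, DESeq2 1.42.0 size factors, TMM over 6 libraries or without a filter, totals without mitochondrial and the 20 highest genes), call thresholds of 0.5 and 5 CPM, other gene lengths and leaving out each library.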

Additional observations from a re-analysis of the deposited data

How the results depend on the processing

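Over 40 counts and shares, 266 of 275 values under the alternatives stayed within 1.5 times the count or within 1 SD of the share. For a share, leaving out 1 of 3 libraries cannot move the mean by 1 SD. Those values stayed within the limit by construction and are no sign of robustness. At a call threshold of 5 CPM in place of 1 CPM, 8 HOX genes were expressed in place of 17. With mitochondrial and the 20 highest genes left out of the totals, the shares moved by construction: nuclear protein-coding genes took 95.9%, long noncoding RNAs 1.62%, pseudogenes 1.07%, small structured RNAs 0.686%, genes not in the annotation 0.642%, other types 0.0650% and mitochondrially encoded genes 0%, and the 100 highest genes held 12.7%. The same totals raised the CPM of named genes to 1.171 to 1.176 times the values given, and TMM over 6 libraries lowered them to 0.955 to 0.957 times. Library totals alone, DESeq2 size factors and TMM without a filter kept them within 0.996 to 1.006 times. Leaving out library 1, 2 or 3 moved 15, 42 and 39 of 548 named genes by over 1.5 times. Per kb, the longest transcript as length moved 58 of the 548 genes by over 1.5 times and the union of exons 217, always downwards, so levels between genes are only as firm as the length. No paired analysis was possible because the libraries form a single group and the results come from no test. Precision is limited by the spread between libraries for abundant genes and by counting error for genes of few counts, such as ERG with 7 counts.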

Other observations

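Levels that differed most between the 3 control libraries were mostly those of genes whose span overlaps that of another gene of at least 1 CPM. Spans run from gene start to gene end with introns included, so an overlap need not mean shared exons. Of 10168 genes with a mean of at least 10 CPM, 154 had a CV over 10% and 60 a CV over 20%. Of the 53 genes with a CV over 20% and a position in the annotation, 46 (86.8%) overlapped a gene of at least 1 CPM on the same strand, against 1060 of 10004 (10.6%) of those with a smaller CV. Among the 53, 7 carried the name of a readthrough of neighbouring genes. This is a description without a test, and how the counting divided reads between overlapping genes is not stated.

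The largest difference was at the 7SK locus (chromosome 6, 52995620 to 52995950), and the genes of this paragraph were chosen after their values were seen. The annotated 7SK copy at that position (ENSG00000202198.1) was at 0.137, 0.323 and 1759 CPM, while RN7SK was at 12651, 12784 and 11401 CPM. Their sum was 12651, 12784 and 13161 CPM, with a CV of 2.06%, so the copy's high value in library 3 came with a lower RN7SK in the same library. The hair keratins beside KRT81 also differed between libraries. KRT83 was at 6.81, 35.8 and 7.07 CPM and KRT85 at 37.4, 1.84 and 40.2 CPM, so library 2 was the high one for KRT83 and the low one for KRT85. The summed level of KRT81, KRT83, KRT85 and KRT86 had a CV of 2.91%. KRT81 made up 1051 of the summed 1127 CPM and alone had a CV of 2.78%. The sum therefore cannot show whether KRT83, KRT85 and KRT86 offset one another.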
